A study of Mus musculus with 9 samples.

Results

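The clade A serpins of the mouse are described here in the liver after an injection of concanavalin A (Con A), with and without a preceding transfer of faeces. Members are the protein-coding genes whose symbol begins with Serpina in the GENCODE annotation of GRCm38. They number 24 of the 56719 genes in the count tables, and all 24 are listed there. The filter on low counts was passed by 19 of them and by 17704 genes in all. Another 5 genes of that name are pseudogenes and were left out.

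Messenger RNA was sequenced from livers of C57BL/6J mice in 3 groups of 3 libraries. Mice of the WT group were gavaged with PBS for 4 weeks and injected with PBS. The Con A group had the same gavage and, on the day the livers were collected, 10 mg/kg of Con A by tail vein. For the FMT-Con A group the gavage held faeces of mice with autoimmune hepatitis (AIH) induced by 10 mg/kg Con A, again for 4 weeks, and the mice then received the same Con A injection. All animals are C57BL/6J with no engineered allele named, and no age or hour of collection after the injection is given. The labels call the animals male in one field and female in another, and transcripts of the Y chromosome gene Ddx3y were counted 2676 to 6192 times in every library. Among these samples no group received faeces without Con A, or faeces from untreated mice, so an effect of the gavaged material itself cannot be told apart from an effect of its hepatitis donors.

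Serpins are plasma and cell proteins with an exposed loop that serves as bait for a protease. Once the loop is cut, an inhibitory serpin snaps into a new shape and holds the protease in a permanent complex. Clade A is made largely by hepatocytes and secreted into blood. It holds alpha-1-antitrypsin, the main plasma inhibitor of neutrophil elastase, and antichymotrypsin, an acute phase inhibitor of cathepsin G. A single human gene corresponds to each of these, whereas the mouse carries a cluster of copies, Serpina1a to Serpina1e and Serpina3a to Serpina3n. Other members no longer inhibit proteases and carry hormones, as Serpina6 (corticosteroid-binding globulin) and Serpina7 (thyroxine-binding globulin) do.

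On GRCm38, 23 members lie close together on chromosome 12, from Serpina10 (start 103614786) to Serpina3n (end 104414329), and Serpina7 lies on the X chromosome (139079257 to 139085236). The Serpina1 copies shared 96.3 to 98.5% of their aligned coding bases pair by pair. Serpina3 copies shared 75.1 to 91.8%, most between Serpina3k and Serpina3m (91.8%) and between Serpina3f and Serpina3i (91.4%). Of all stretches of 150 bases, the read length, in the transcripts of Serpina1c, 50.5% occurred exactly in another member, mostly in Serpina1a. That share was 35.1% for Serpina1a, 20.2% for Serpina1d, 11.9% for Serpina1b and 7.36% for Serpina1e, and at most 0.331% for any Serpina3 gene. How reads that match several copies were counted is not given in the sources used here, so single values of the Serpina1 copies are uncertain and their sum is given as well. The annotated span of Serpina1b contains Serpina1d and that of Serpina3m contains Serpina3k. Of the exon length of Serpina11, 40.8% also lies in another annotated gene of the same strand (Gm28577). For Serpina1c, 31.5% lies in a gene of the opposite strand (B430119L08Rik). Such reads of Serpina1c are shared only if the counting ignored strand, which is not given.

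The stretch just upstream of the transcription start differs between the clusters, and the windows of the members that changed most after Con A, and of an unequal pair of Serpina1 copies, are shown for that reason. RefSeq windows of GRCm38.p6 were found for 19 of the 24 members. The 5 members not matched were Serpina6, Serpina9, Serpina10, Serpina3k and Serpina3m. Each window holds the 250 bases before the start, written 5′ to 3′ on the gene's strand. In the first 4, capitals mark matches on either strand to TTCNNNGAA (bound by STAT factors), TTGCNNAA (a C/EBP core) or to GGG and TTCC with any 3 bases between them (an NF-kappaB type site). In the last pair, capitals mark GTTAAT, an arm of the site bound by the liver factor HNF1. The windows are Serpina3f at chr12:104214294-104214543, Serpina3i at chr12:104262872-104263121, Serpina3g at chr12:104235897-104236146 and Serpina3n at chr12:104406458-104406707 on the plus strand, and Serpina1d at chr12:103773634-103773883 and Serpina1a at chr12:103863620-103863869 on the minus strand.
Serpina3f: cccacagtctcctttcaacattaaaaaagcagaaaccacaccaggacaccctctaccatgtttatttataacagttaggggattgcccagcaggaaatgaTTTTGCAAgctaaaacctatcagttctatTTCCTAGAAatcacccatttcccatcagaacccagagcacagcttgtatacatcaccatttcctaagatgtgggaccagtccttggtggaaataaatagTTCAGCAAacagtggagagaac
Serpina3i: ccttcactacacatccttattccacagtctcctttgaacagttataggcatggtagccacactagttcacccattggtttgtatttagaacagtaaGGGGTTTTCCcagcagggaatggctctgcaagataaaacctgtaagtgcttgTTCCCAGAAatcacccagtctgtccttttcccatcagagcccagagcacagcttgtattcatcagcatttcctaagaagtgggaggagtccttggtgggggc
Serpina3g: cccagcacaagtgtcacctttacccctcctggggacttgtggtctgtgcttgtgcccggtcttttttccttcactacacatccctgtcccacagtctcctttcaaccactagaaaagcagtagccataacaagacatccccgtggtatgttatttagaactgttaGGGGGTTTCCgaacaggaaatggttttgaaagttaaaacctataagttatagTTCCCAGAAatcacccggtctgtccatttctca
Serpina3n: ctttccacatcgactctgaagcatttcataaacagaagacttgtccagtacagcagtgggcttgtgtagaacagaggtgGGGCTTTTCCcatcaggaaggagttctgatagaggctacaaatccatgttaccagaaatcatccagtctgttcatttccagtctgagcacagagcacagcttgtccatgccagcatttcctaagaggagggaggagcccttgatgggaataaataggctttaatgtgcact
Serpina1d: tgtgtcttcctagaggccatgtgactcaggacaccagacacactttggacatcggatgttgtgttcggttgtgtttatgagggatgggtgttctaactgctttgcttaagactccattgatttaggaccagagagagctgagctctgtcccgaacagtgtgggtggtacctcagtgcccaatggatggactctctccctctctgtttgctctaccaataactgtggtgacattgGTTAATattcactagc
Serpina1a: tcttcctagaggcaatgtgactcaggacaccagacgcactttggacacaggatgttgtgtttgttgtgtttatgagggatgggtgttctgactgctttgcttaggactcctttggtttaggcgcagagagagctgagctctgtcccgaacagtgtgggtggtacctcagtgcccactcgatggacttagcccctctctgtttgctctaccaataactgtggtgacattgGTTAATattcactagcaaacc

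The STAT pattern was found in Serpina3f, Serpina3g and Serpina3i, starting 121, 33 and 102 bases before the start, and also in Serpina1f and Serpina11. It occurs in 7.02% of all 32851 promoter windows of this length. Serpina3g, Serpina3i and Serpina3n held the NF-kappaB type pattern, as did Serpina12, against 4.65% of all windows. Of the 7 windows of members that rose after Con A, 3 held the STAT pattern and 3 the NF-kappaB type pattern. Those of Serpina3c, Serpina7 and Serpina1d held neither. The HNF1 arm was found in all of Serpina1a to Serpina1e, 16 to 78 bases before the RefSeq start, and in Serpina3c and Serpina7 (6.43% of all windows). Of the 19 windows, 9 held the C/EBP core (9.56% of all windows). They were those of Serpina1b, Serpina1d, Serpina1e, Serpina1f, Serpina3b, Serpina3f, Serpina5, Serpina7 and Serpina12. Of the pair shown above, Serpina1d thus held this core, which is not marked there, and Serpina1a did not. None held an interferon response pattern (TTTC and TTTC with any 2 bases between them, 2.98% of all windows). Where they could be aligned, upstream windows of the Serpina1 copies were alike for 92.1 to 98.0% of bases, over 188 to 248 of the 250. Identity was 92.7% over 247 bases between Serpina3c and Serpina3n, 82.2% over 219 between Serpina3f and Serpina3i, and 82.6% over only 161 between Serpina3f and Serpina3g. All windows end at the RefSeq start. The GENCODE start lay 92184 bases away for Serpina1b, 2078 for Serpina1e, 623 for Serpina16 and at most 98 for the other matched members. A match is a run of letters in the reference, and binding was not measured.

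Levels are CPM, counts scaled by library size and TMM factor, with log2 fold changes, their standard errors (SE) and adjusted p from edgeR's quasi-likelihood F test over 17704 genes. An adjusted p under 0.05 counts as passed. Library totals ran from 20513051 to 29466806. Clade A serpins took 1.1 to 1.28% of the counts in WT, 2.41 to 3.18% after Con A and 1.89 to 2.73% in the FMT-Con A group. Mitochondrial transcripts took 19.6 to 22.4%, 5.03 to 9.96% and 7.44 to 11.7%. Summed over 10 hepatocyte markers, levels were 67329.3 to 81439.7 CPM in WT, 71488.4 to 83029.4 after Con A and 43987.7 to 53178.4 in the FMT-Con A group. The library FMT-Con A 2 stood apart from the other two of its group: 23 skeletal muscle genes summed to 19579.8 and 19342.3 CPM in FMT-Con A 1 and 3 against 2032.2 in FMT-Con A 2, 2285.1 in Con A 3 and 13.9 to 66.4 elsewhere. Adipoq, an adipocyte marker, was counted 371 and 280 times in FMT-Con A 1 and 3 and at most 97 times in any other library. Differences between 2 libraries were also scored as the median chi-square over genes, relative to sampling noise. That score was 2.9 between FMT-Con A 1 and 3, and 3.77 to 6.27 within WT. It was 14.4 between FMT-Con A 2 and each of FMT-Con A 1 and 3, and 13.8 between FMT-Con A 2 and Con A 2. The members' calls against FMT-Con A were therefore also computed with FMT-Con A 2 as its only library, while sums over members, overlaps and gene lists were not.

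Per kilobase of exon, the order of members in WT began with Serpina1c (1734.7 ± 145.2 CPM per kilobase, SD, n = 3) and Serpina1b (1697.5 ± 161.1), which did not differ beyond their spread. Before division by length, Serpina1b stood higher (4099.5 ± 389.0 against 2360.9 ± 197.6 CPM). Its annotated exons span 2415 bases and those of Serpina1c 1361. The order of these copies thus depends on the annotation and on how reads shared between copies were counted. Serpina3k (954.5 ± 166.0) and Serpina1a (879.8 ± 123.5) came next and also lay within their spread. The lowest of the 19 members above the filter were Serpina3f (0.508 ± 0.0138) and Serpina3i (0.0464 ± 0.0221). After Con A the order began with Serpina3k (4958.2 ± 1280.9) and Serpina3n (4615.4 ± 1460.7), again not apart from each other, and then Serpina1b (1774.2 ± 308.1). In FMT-Con A, Serpina3n (3089.9 ± 937.3) and Serpina3k (2915.9 ± 1055.2) led, followed by Serpina1b (1244.5 ± 186.3). Serpina3n, the antichymotrypsin-type copy with the largest gain in CPM, stood below Serpina1a, Serpina1b and Serpina1c per kilobase in WT and above every Serpina1 copy in both injected groups.

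**Figure D1:**
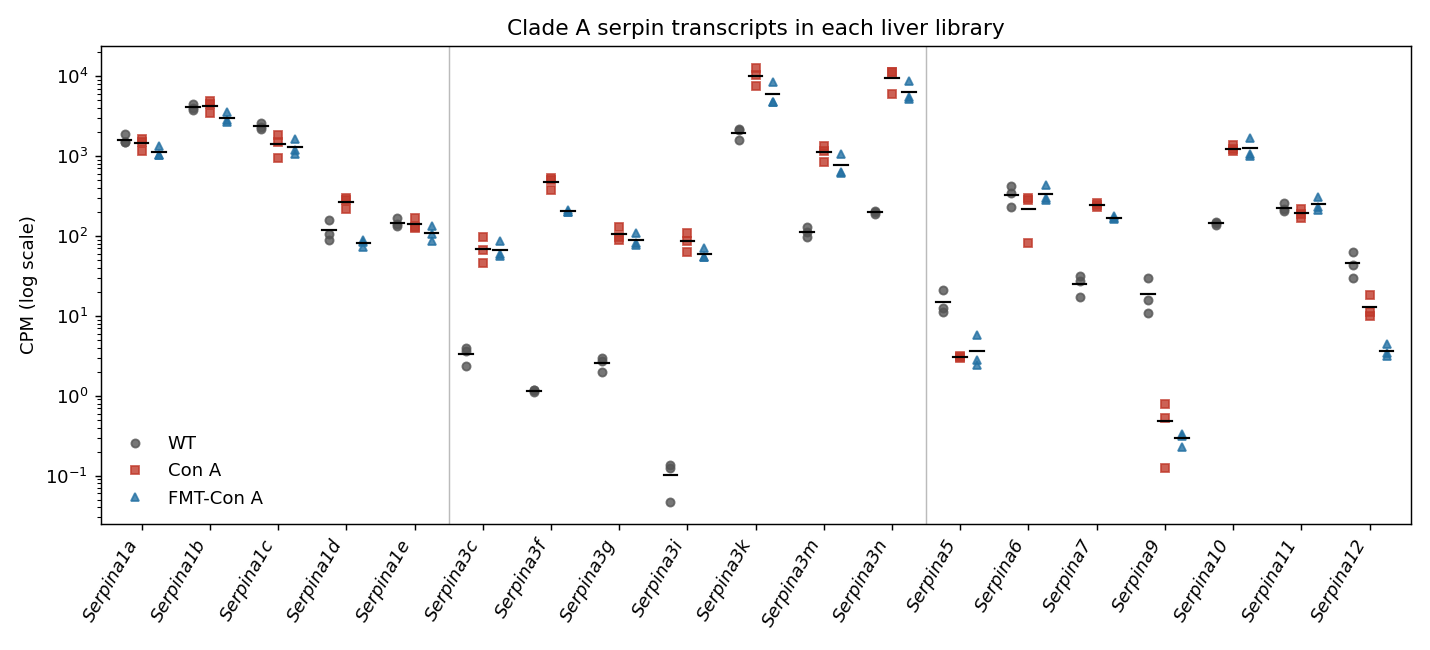
CPM (log scale) of the 19 clade A serpin genes above the count filter in each library, grouped as Serpina1 copies, Serpina3 copies and other members, with a bar at each group mean of 3 libraries. All 7 Serpina3 genes lie higher in the 6 injected libraries than in WT, while Serpina5, Serpina9 and Serpina12 lie lower.

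Con A against WT asks which genes the injection moved. In that comparison 10 of the 19 tested members rose, 4 fell and 5 did not pass. The share that passed, 73.7%, compares with 63.4% of all tested genes (32.5% higher, 30.9% lower), so the count of calls is near the background of a liver in which most genes moved. Direction and size differed between the gene groups. All 7 tested Serpina3 genes rose, by 2.38 to 9.62 on the log2 scale, while 1 Serpina1 copy rose, 1 fell and 3 did not pass. Over the tested members the median log2 fold change was 1.17, and over all tested genes 0.01. For 14 members (73.7%) all Con A libraries lay on 1 side of all WT libraries, as they did for 69.8% of all genes.

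Serpina3i and Serpina3f, at mean levels of 0.103 and 1.16 CPM in WT, had the largest folds of the Serpina3 copies (785.7 and 401.1), followed by Serpina3n (48), Serpina3g (41.1) and Serpina3c (20.8). Serpina3f was 1.19, 1.17 and 1.13 CPM in WT, 502.2, 526.4 and 376.8 after Con A and 200.3, 211.3 and 197.8 in the FMT-Con A group. Its 3 groups did not overlap, and its log2 fold change in Con A was 8.65 (SE 0.21, n = 3 each, edgeR adjusted p = 2.81e-08). Serpina3i rested on 3, 1 and 3 counts in WT and reached 109.1, 62.3 and 86.8 CPM after Con A and 54.4, 71.4 and 54.3 in the FMT-Con A group. By summed counts it was 820.5 times higher in Con A than in WT (95% counting interval 398.0 to 2041.8) and 564.8 times higher in FMT-Con A (273.9 to 1405.6). Every injected library stood far above every WT library for both genes, and for Serpina3i the injected groups overlapped. Serpina3g, an inhibitor of lysosomal cathepsins known from leukocytes, was 2.93, 2.76 and 2.01 CPM in WT, 96.9, 131.1 and 88.2 after Con A and 81.7, 110.4 and 78.2 in the FMT-Con A group. It rose by 5.36 on the log2 scale in Con A (SE 0.25, edgeR adjusted p = 2.42e-07). Serpina3c was 2.33, 3.98 and 3.68 CPM in WT, 96.1, 66.9 and 45.4 after Con A and 60.3, 85.7 and 55.6 in the FMT-Con A group, a rise of 4.38 after Con A (SE 0.33, edgeR adjusted p = 3.55e-06). The injected groups overlapped for both of these genes.

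The abundant Serpina3 copies gained most of the reads. Serpina3n, an acute phase inhibitor of granzyme B and leukocyte elastase, was 200.4, 208.0 and 187.2 CPM in WT. It reached 11276.9, 6044.9 and 11256.9 after Con A and 5419.5, 8604.3 and 5108.7 in the FMT-Con A group. All injected libraries were above all WT libraries, and the log2 fold change in Con A was 5.58 (SE 0.35, edgeR adjusted p = 1.16e-06). Serpina3k, which binds tissue kallikrein, was already abundant at 1570.1, 2138.5 and 2181.8 CPM in WT, and reached 12790.8, 7523.4 and 10282.9 after Con A and 4751.5, 8504.3 and 4738.3 in the FMT-Con A group. Its rise was 2.38 (SE 0.31, edgeR adjusted p = 0.000102). Serpina3m, the closest copy of Serpina3k, was 96.8, 111.1 and 129.3 CPM in WT, 1348.4, 850.9 and 1171.5 after Con A and 631.0, 1071.6 and 618.2 in the FMT-Con A group, a rise of 3.32 in Con A (SE 0.28, edgeR adjusted p = 6.48e-06). For these 3 genes Con A 2 was the lowest Con A library and FMT-Con A 2 the highest FMT-Con A library, and the injected groups overlapped.

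Summed over the 10 Serpina3 genes, the cluster held 2282.1 ± 353.5 CPM in WT and 21578.6 ± 5707.5 in Con A (SD, n = 3 each), a log2 fold change of 3.24 (SE 0.31, edgeR adjusted p = 1.6e-05). Its make-up changed as well. Serpina3k held 83.8, 86.7 and 87.1% of the cluster's reads in WT and 48.8, 49.5 and 44.1% in Con A. Serpina3n held 10.7, 8.43 and 7.47% in WT and 43, 39.8 and 48.3% in Con A. The WT and Con A libraries did not overlap for either share, and the exact two-sided permutation p was 0.1 for both, the smallest that 3 libraries against 3 can give. Serpina3m held 4.51 to 5.16% in WT and 5.03 to 5.6% in Con A (exact permutation p = 0.6). In FMT-Con A, Serpina3k held 42.4 to 45.6% and Serpina3n 46.1 to 48.4%.

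**Figure D2:**
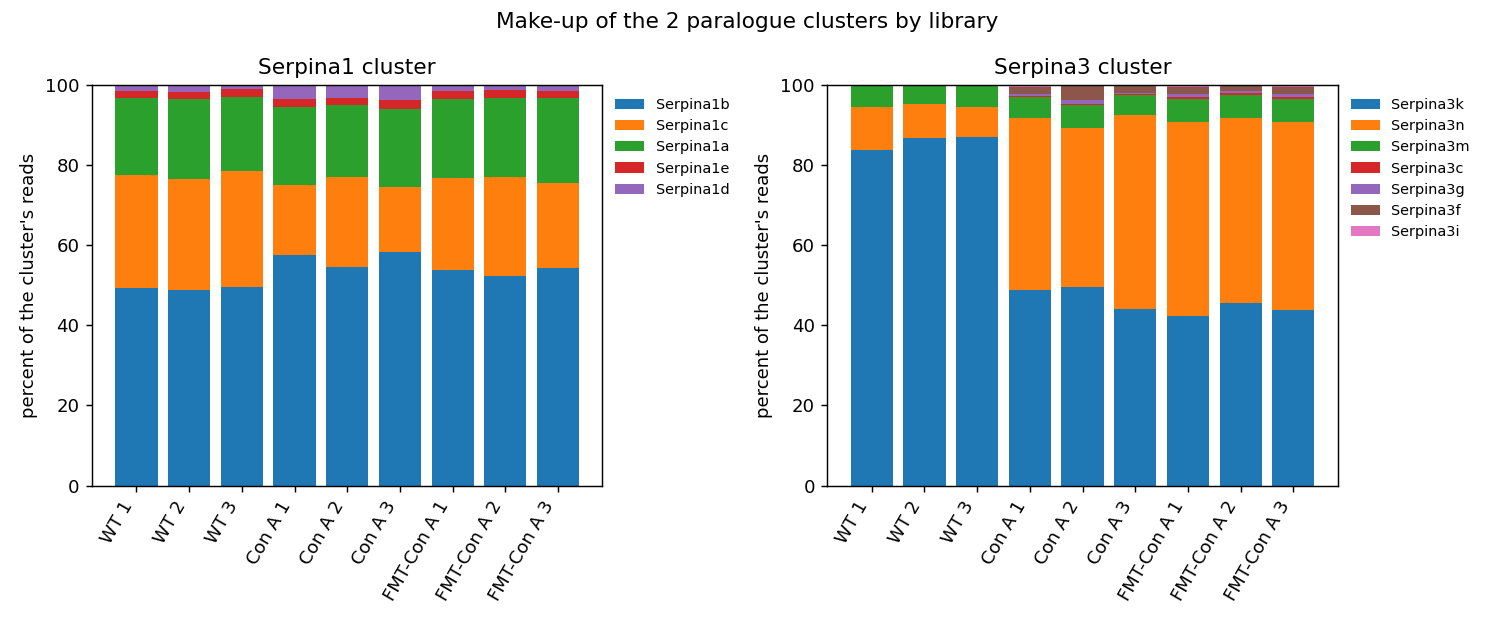
Share of each cluster's reads (percent) taken by each gene in every library, for Serpina1a to Serpina1e at the left and the Serpina3 genes above the filter at the right. Serpina3n held 7.47 to 10.7% of the Serpina3 reads in WT and 39.8 to 48.4% in the 6 injected libraries.

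The antitrypsin copies behaved differently from one another. Serpina1d rose from 107.2, 157.3 and 88.4 CPM in WT to 299.0, 278.5 and 218.1 in Con A, and was 84.5, 89.3 and 71.9 in FMT-Con A. All Con A libraries lay above all others, and the log2 fold change against WT was 1.17 (SE 0.22, n = 3 each, edgeR adjusted p = 0.00107). Serpina1c was 2185.6, 2575.1 and 2322.0 CPM in WT, 1481.0, 1849.6 and 958.5 after Con A and 1197.0, 1650.8 and 1048.0 in the FMT-Con A group. Each injected library was below each WT library, and Serpina1c fell by 0.72 in Con A (SE 0.26, edgeR adjusted p = 0.0316). That call was lost without WT 2, without WT 3, without Con A 1 or without Con A 3, where edgeR adjusted p was 0.0783, 0.0626, 0.0593 and 0.0895. Serpina1b, the copy with the most reads, was 3788.0, 4535.6 and 3975.1 CPM in WT, 4871.2, 4534.9 and 3447.7 after Con A and 2833.6, 3515.9 and 2666.8 in the FMT-Con A group. WT and Con A overlapped for it (log2 fold change 0.06, SE 0.20, edgeR adjusted p = 0.791). Its sign turned under upper-quartile scaling (-0.14). Serpina1a (-0.16, SE 0.19, edgeR adjusted p = 0.479) and Serpina1e (-0.05, SE 0.19, edgeR adjusted p = 0.822) did not pass either.

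Summed over Serpina1a to Serpina1e, levels were 8337.1 ± 856.5 CPM in WT and 7561.1 ± 1432.6 in Con A (log2 fold change -0.14, SE 0.21, edgeR adjusted p = 0.582). Within that sum, Serpina1d held 1.39, 1.69 and 1.1% of the reads in WT, 3.53, 3.35 and 3.69% after Con A and 1.61, 1.33 and 1.46% in the FMT-Con A group. Serpina1c held 27.7 to 29% in WT, 16.2 to 22.3% after Con A and 21.3 to 24.6% in the FMT-Con A group. Serpina1b held 48.7 to 49.6% in WT, 54.6 to 58.3% after Con A and 52.4 to 54.3% in the FMT-Con A group. The Con A shares of these 3 genes did not overlap with those of WT (exact permutation p = 0.1 for each, the smallest possible), and the shift of Serpina1b, 7.63 percentage points, exceeded that of Serpina1d, 2.13. Because 50.5% of the 150-base stretches of Serpina1c and 20.2% of those of Serpina1d occur in other copies, the authors' handling of such reads bears on these shares and, if such reads were dropped, also on the sum. Its part was not tested.

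Of the remaining inhibitors, Serpina10, the protein Z-dependent inhibitor of activated factor X, rose. It was 137.6, 150.3 and 145.9 CPM in WT, 1362.5, 1142.8 and 1217.5 after Con A and 1049.4, 1692.5 and 1016.1 in the FMT-Con A group. The injected groups overlapped with each other and lay above WT, and the log2 fold change in Con A was 3.10 (SE 0.22, n = 3 each, edgeR adjusted p = 2.66e-06). Serpina5, the protein C inhibitor, fell from 12.6, 21.3 and 11.1 CPM in WT to 2.93, 3.15 and 3.07 in Con A, with 2.84, 5.74 and 2.4 in FMT-Con A. Its log2 fold change after Con A was -2.29 (SE 0.36, edgeR adjusted p = 0.000324). Serpina12 (vaspin), a kallikrein inhibitor first described in visceral fat, was 30, 63.6 and 43.4 CPM in WT, 18.1, 11.2 and 9.99 after Con A and 3.16, 4.42 and 3.43 in the FMT-Con A group. The 3 groups of Serpina12 did not overlap, and the log2 fold change of Con A against WT was -1.81 (SE 0.30, edgeR adjusted p = 0.000482). Of 7 adipocyte markers, Plin4 and Fabp4 rose after Con A and 5 did not pass, with a median log2 fold change over the list of -1.54. Among all tested genes 32.5% rose. Adipoq, the defining marker, had 31, 97 and 0 counts in WT and 2, 36 and 12 after Con A. In FMT-Con A, where Serpina12 was lowest, Adipoq had 371, 35 and 280 counts, and the list's median against Con A was 2.91. The part of adipocyte RNA in the Serpina12 level was not tested.

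Serpina9, known from germinal centre B cells, had the largest fall of the family. It was 15.7, 29.5 and 10.9 CPM in WT, 0.785, 0.534 and 0.124 after Con A and 0.316, 0.332 and 0.229 in the FMT-Con A group. WT stood above all injected libraries, by 40.5 times over Con A in summed counts (95% counting interval 28 to 60.7, edgeR adjusted p = 2.25e-05). B cell markers were low throughout: 8 of them summed to 6.79 to 9.11 CPM in WT, 5.31 to 9.53 after Con A and 6.41 to 9.4 in the FMT-Con A group. After Con A 2 of the 7 tested fell (Mzb1 and Pax5), near the 30.9% of all tested genes that fell.

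The hormone carriers parted. Serpina7 rose from 27.5, 17.3 and 31.3 CPM in WT to 245.6, 227.8 and 259.4 in Con A, and was 164.8, 165.9 and 175.9 in FMT-Con A. Its 3 groups did not overlap, and the log2 fold change after Con A was 3.27 (SE 0.21, n = 3 each, edgeR adjusted p = 1.5e-06). Serpina6 was 227.6 to 416.7 CPM in WT, 82.3 to 296.1 after Con A and 278.9 to 440.4 in the FMT-Con A group, so that its groups overlapped (-0.57 in Con A against WT, SE 0.43, edgeR adjusted p = 0.26). Con A 3 was the lone low library of Serpina6. Serpina11, a secreted member of little known function, did not pass either (-0.24, SE 0.18, edgeR adjusted p = 0.257).

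**Figure D3:**
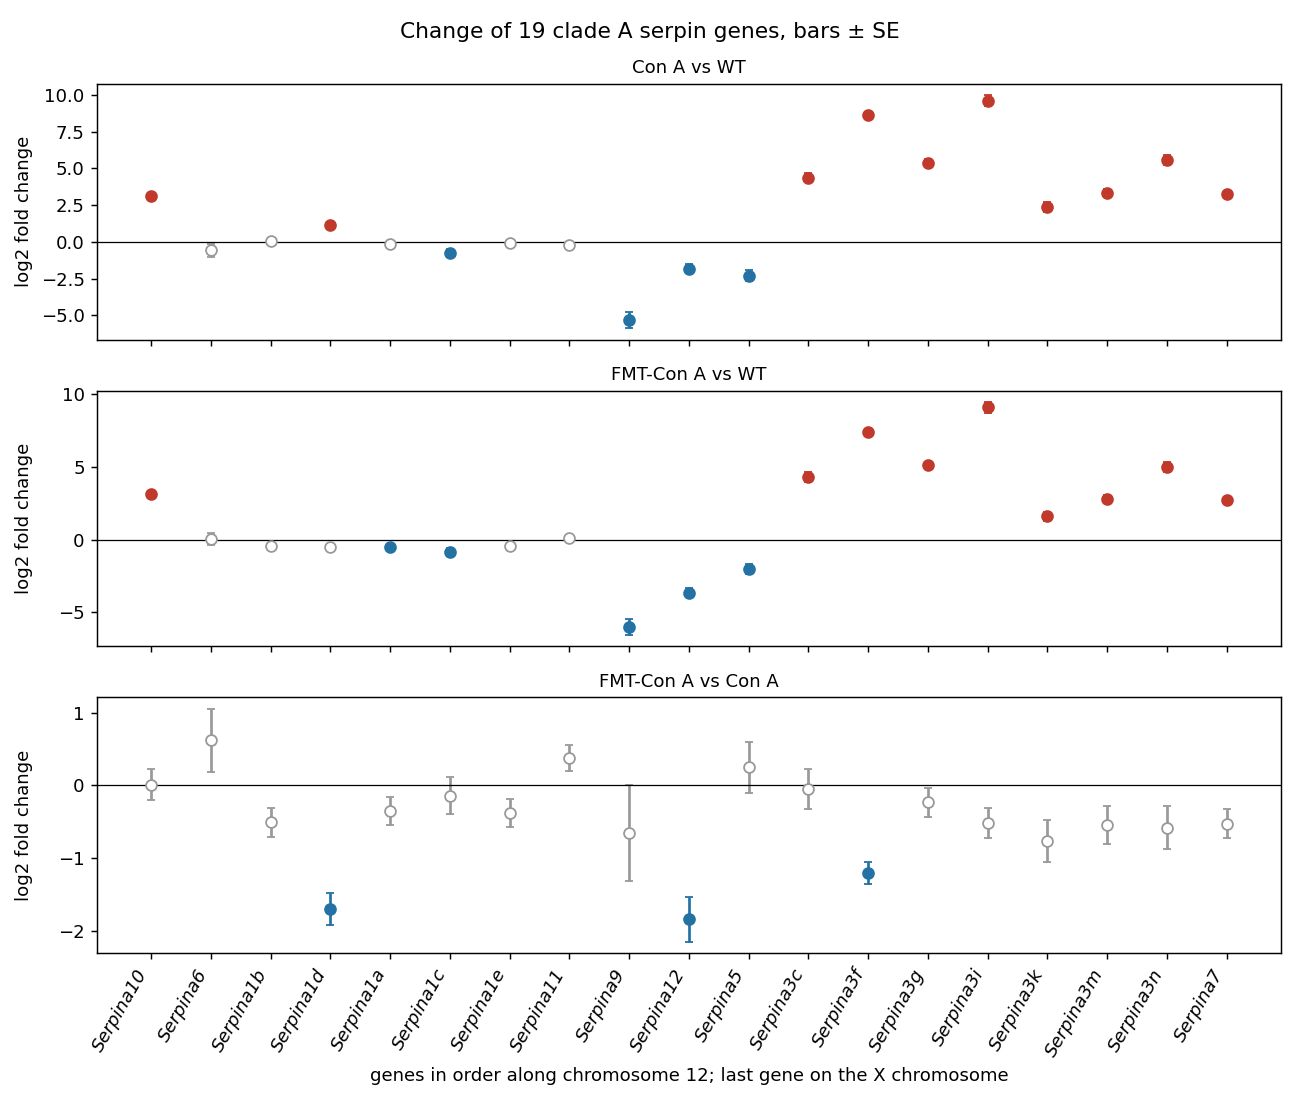
Log2 fold change with its SE for the 19 tested members in their order along chromosome 12, with Serpina7 of the X chromosome last, in 3 panels with their own vertical scales. Red and blue points passed the test as higher and lower, and open grey points did not pass. From Serpina3c to Serpina3n all 7 points are red against WT in both upper panels.

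The 5 members under the count filter had few reads in every group. Serpina3a had 14, 5 and 13 counts across WT, 4, 5 and 10 after Con A and 5, 3 and 4 in the FMT-Con A group. Serpina3b had 3 counts over the 3 WT libraries, 1 over Con A and 3 over FMT-Con A. Serpina3j had none in WT, 1 in Con A and 3 in FMT-Con A, and Serpina1f, known from the epididymis, had none in WT and 1 in each injected group. Serpina16 had 1 count in WT and none in the injected groups. A count of 0 over the 3 WT libraries allows up to 3 counts, or 0.0447 CPM, and intervals and floors cover counting error only. Serpina3a, Serpina3b and Serpina3j thus showed no rise detectable at this depth beside their 7 neighbours, and Serpina3a was 3.14 times higher by summed counts in WT than in FMT-Con A (95% counting interval 1.57 to 6.69).

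FMT-Con A against Con A asks what the preceding faecal transfer changed. Of the 19 tested members 3 fell, Serpina1d, Serpina3f and Serpina12, and 16 did not pass. The share that passed, 15.8%, is close to the 16.8% of all tested genes that did (6.26% higher, 10.6% lower). No member rose by edgeR's test, none was higher at an unadjusted p under 0.05 (7 were lower), and none was higher by DESeq2. The median log2 fold change of the members was -0.51, against -0.01 over all tested genes and -0.60 over the 10 hepatocyte markers. That median was not computed with FMT-Con A 2 as the only library of its group. In that fit single members ran from -1.57 (Serpina1d) to 1.00 (Serpina6), with Serpina5 (0.91), Serpina11 (0.66) and Serpina10 (0.45) also above 0. Of all genes that passed, 37.2% were higher (1108 of 2981) with TMM and 51.7% under upper-quartile scaling, where 3 members again fell.

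Serpina1d fell by 1.70 on the log2 scale (SE 0.22, n = 3 each, edgeR adjusted p = 0.00283). That brought it to 81.9 ± 8.99 CPM, against 265.2 ± 42 in Con A and 117.6 ± 35.6 in WT (SD). Against WT, Serpina1d in FMT-Con A had a log2 fold change of -0.52 that did not pass (SE 0.22, edgeR adjusted p = 0.0611). It passed as lower with DESeq2 (adjusted p = 0.0442), under upper-quartile scaling (-0.63, edgeR adjusted p = 0.0305), with the replicate number as a block (0.0317) and without WT 3 (-0.69, 0.0237). Serpina3f fell by 1.21 (SE 0.15, edgeR adjusted p = 0.00236), to 203.1 ± 7.19 from 468.5 ± 80.3 CPM, and stayed far above WT (7.44, SE 0.20, edgeR adjusted p = 7.37e-08). Serpina12 fell by 1.84 (SE 0.31, edgeR adjusted p = 0.00695), from 13.1 ± 4.35 to 3.67 ± 0.661 CPM. Here the transfer group lay further from WT than Con A did (-3.64 against WT, SE 0.33, edgeR adjusted p = 1.41e-05). Comparisons with Con A and with WT share libraries and are given side by side for each gene only.

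**Figure D4:**
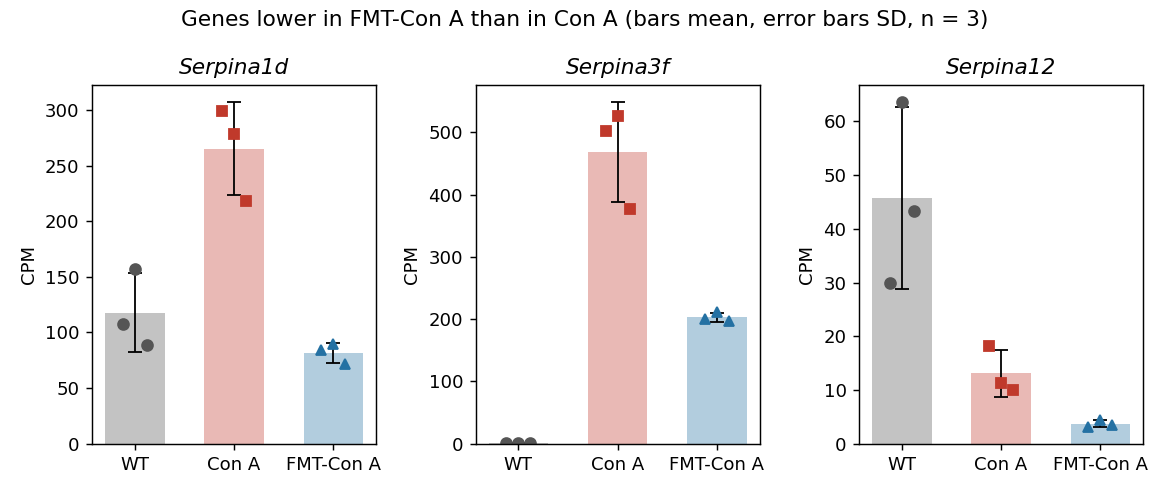
CPM of Serpina1d, Serpina3f and Serpina12 in the 3 groups, with a point per library, bars at the mean and error bars of 1 SD (n = 3). The FMT-Con A libraries lie at 71.9 to 89.3, 197.8 to 211.3 and 3.16 to 4.42 CPM, below all Con A libraries in each panel.

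These 3 genes were about as low in FMT-Con A 2 as in the libraries with the high muscle level. With FMT-Con A 2 as the only library of its group, the log2 fold changes against Con A were -1.57 for Serpina1d, -1.15 for Serpina3f and -1.56 for Serpina12. None of the 3 then passed (edgeR adjusted p = 0.0921, 0.0786 and 0.174), with 1 library assumed to vary like the other groups. Of 10 hepatocyte markers, 3 were lower in FMT-Con A than in Con A (Cps1, Alb and Apob) and 7 did not pass (median of the list -0.60). Of all tested genes 10.6% were lower. Among 15 acute phase plasma proteins 1 was lower and 14 did not pass (median 0.06). In whole tissue, fewer cells of a type and less RNA per cell cannot be told apart. The part of the hepatocyte level in the falls of Serpina1d, Serpina3f and Serpina12 was not tested.

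The other members ran mostly to lower values without passing. Serpina7 was lower in every FMT-Con A library than in any Con A library (-0.53, SE 0.20, edgeR adjusted p = 0.085), and no other member outside the 3 was without overlap between these groups. The number without overlap, 4 of 19 members (21.1%), compares with 32.7% of all genes. Serpina3k (-0.77), Serpina3n (-0.58), Serpina3m (-0.54), Serpina3i (-0.52) and Serpina1b (-0.51) had edgeR adjusted p between 0.0976 and 0.181. With FMT-Con A 2 as the only library of its group, these genes stood closer to 0, at -0.26, -0.15, -0.07, -0.27 and -0.29 in that order. Serpina7 was -0.56 in that fit. The number of members that fell was 5 without Con A 2 (with Serpina3i and Serpina3n), 6 without FMT-Con A 2 (with Serpina1b, Serpina3k and Serpina3m) and 6 with DESeq2 (with Serpina1b, Serpina3k and Serpina7). Serpina10 (0.01), Serpina3c (-0.05), Serpina1c (-0.14) and Serpina3g (-0.23) had the values closest to 0. They lay within 2 SE of it, as Serpina9, Serpina5 and Serpina6 also did. For Serpina9, Serpina1e, Serpina1a, Serpina5, Serpina11 and Serpina6 the log2 fold changes were -0.66, -0.38, -0.35, 0.25, 0.38 and 0.62, with edgeR adjusted p of 0.508, 0.179, 0.235, 0.648, 0.155 and 0.332. The summed Serpina3 cluster was 13569.8 ± 4410.9 CPM in FMT-Con A (log2 fold change -0.67 against Con A, SE 0.29, edgeR adjusted p = 0.135), and the Serpina1 sum 5627.3 ± 953.9 (-0.43, SE 0.21, edgeR adjusted p = 0.188).

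FMT-Con A against WT gave 9 members higher, 5 lower and 5 not passed (73.7%, against 59% of all tested genes, with 31.2% higher and 27.9% lower). All 7 tested Serpina3 genes were higher again, by 1.61 (Serpina3k, SE 0.30, edgeR adjusted p = 0.00127) to 9.10 (Serpina3i), as were Serpina10 (3.11, SE 0.22) and Serpina7 (2.73, SE 0.21). Serpina9 (-5.98, SE 0.56, edgeR adjusted p = 1.98e-05), Serpina5 (-2.04, SE 0.35, edgeR adjusted p = 0.000762) and Serpina12 were lower, and with them Serpina1c (-0.86, SE 0.26, edgeR adjusted p = 0.0159) and Serpina1a (-0.51, SE 0.19, edgeR adjusted p = 0.0442). The call of Serpina1a was lost without any one of WT 1, WT 2, WT 3, FMT-Con A 1 and FMT-Con A 3 (edgeR adjusted p = 0.0676, 0.163, 0.0598, 0.136 and 0.131). That of Serpina1c was lost without WT 2, FMT-Con A 1 or FMT-Con A 3 (edgeR adjusted p = 0.0514, 0.0568 and 0.0635). With FMT-Con A 2 as the only library of its group, neither passed (Serpina1a -0.31, edgeR adjusted p = 0.412, and Serpina1c -0.54, edgeR adjusted p = 0.262). The number lower was 3 in each fit without WT 2, FMT-Con A 1 or FMT-Con A 3, also 3 with FMT-Con A 2 as the only library of its group, and 8 under upper-quartile scaling. The libraries of FMT-Con A and WT were without overlap for 15 members (78.9%), against 69.1% of all genes. Summed, the Serpina1 copies had a log2 fold change of -0.57 against WT (SE 0.21, edgeR adjusted p = 0.0429) and the Serpina3 genes one of 2.57 (SE 0.31, edgeR adjusted p = 8.14e-05).

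Genes around the serpins were read from lists chosen for their roles. Over all tested genes, 32.5% rose and 30.9% fell after Con A, and 6.26% were higher and 10.6% lower in FMT-Con A than in Con A. Of 18 tested proteases and cofactors that clade A serpins meet, 12 rose and 3 fell after Con A (median log2 fold change 1.10). The 4 with the lowest p were Gzmb, the granzyme that Serpina3n inhibits (1.13 ± 0.176 to 34.9 ± 10.7 CPM, log2 fold change 4.94), Gzma (4.62), and the collagen-degrading metalloproteases Mmp9 (4.59) and Mmp8 (6.38). Against Con A, 6 of the 18 fell in FMT-Con A, led by F11, a coagulation factor (178.1 ± 30.1 to 43.2 ± 5.07 CPM, -2.04, edgeR adjusted p = 0.00147), Gzma (-2.46, edgeR adjusted p = 0.00147) and Gzmb (-1.67, edgeR adjusted p = 0.00296). Neutrophil elastase itself (Elane) was counted at most 12 times in any library. Markers of neutrophils summed to 9.32 to 14.8 CPM in WT, 274.1 to 478.5 after Con A and 206.9 to 332.5 in the FMT-Con A group, and all 9 tested rose after Con A. Markers of T and NK cells, Gzmb among them, summed to 6.93 to 9.28, 35.5 to 68.1 and 18.5 to 22.9 CPM. Gzmb alone gave 22.7 to 42.3 CPM of these sums after Con A and 10.2 to 12.4 in the FMT-Con A group. Of the 10 tested, 8 rose and 1 fell after Con A, and 5 were lower in FMT-Con A than in Con A. The part of these cells in the serpin levels was not tested.

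Among 14 tested serpins of other clades, 7 rose and 2 fell after Con A, which together is near the 63.4% of all tested genes that passed, and 4 fell in FMT-Con A against Con A. Their median log2 fold changes were 0.95 and -0.39. Serpinb6b (2.97), Serpinb9, the intracellular inhibitor of granzyme B (2.38), and Serping1, the C1 inhibitor (1.56), were among those that rose. In FMT-Con A against Con A, Serpinb6b (-1.42) and Serpinb9 (-1.11) were lower, with edgeR adjusted p of 0.00431 and 0.00972. Agt, angiotensinogen, belongs to clade A without the Serpina symbol. It rose from 282.4 ± 22.5 to 944.1 ± 528.7 CPM after Con A (1.74, SE 0.42, edgeR adjusted p = 0.00479) and was 657.2 ± 343.6 in FMT-Con A (-0.52 against Con A, SE 0.41, edgeR adjusted p = 0.397, and 1.22 against WT, SE 0.42, edgeR adjusted p = 0.0282).

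All 15 acute phase plasma proteins rose after Con A (median log2 fold change 3.12), with Lcn2 (9.01), Saa2 (8.88), Saa1 (8.09) and Orm2 (5.66) first by p. Of these 15, only Cp, ceruloplasmin, fell in FMT-Con A against Con A (-0.97, SE 0.21, edgeR adjusted p = 0.0159), and the list's median was 0.06. Among 22 regulators of liver and acute phase genes, 10 rose and 7 fell after Con A (median 0.02). Of all tested genes 32.5% rose and 30.9% fell. Osmr, the oncostatin M receptor (3.64), and Cebpd, an acute phase C/EBP factor (4.39), rose, while the liver factor Foxa2 (-2.93) fell. In FMT-Con A against Con A, 3 regulators were higher, Foxa2 (1.74) and Cux2 (1.76) among them, and 2 were lower. The shares of all tested genes were 6.26% and 10.6%.

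For the hormone carriers, 17 genes of corticosteroid and thyroid hormone transport and response were read. Over all tested genes 32.5% rose and 30.9% fell after Con A, and 10.6% were lower in FMT-Con A than in Con A. Of these 17 genes, 3 rose and 6 fell after Con A (median -0.34). The glucocorticoid-responsive Fkbp5 (2.32) and Tat (2.11) were higher. Tsc22d3 (-1.75) and Pck1 (-0.70), also read for the corticosteroid response, were lower, so that response genes went both ways. The thyroid hormone receptor Thrb (-1.22) and the bile acid and hormone transporter Slc10a1 (-1.22) were lower too. In FMT-Con A against Con A 6 fell, led by Pck1 (-1.77), the mineralocorticoid receptor Nr3c2 (-1.05) and the glucocorticoid receptor Nr3c1 (-0.58). Of 15 genes that fold and export secreted proteins such as the serpins, 8 rose and 2 fell after Con A (median log2 fold change 0.49), again together near the 63.4% of all genes. The chaperone Hspa5 (1.85), the glucosyltransferase Uggt1 (0.98) and the cargo receptor Surf4 (1.18) rose, and Sel1l, of the degradation pathway for misfolded proteins, fell (-1.03). In FMT-Con A against Con A, Edem1 (-0.66) and Uggt1 (-0.36) were lower and Sel1l (0.44) was higher.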

How the data were processed

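Liver mRNA of 9 libraries was analysed from 1 count table per library. The deposited values are raw read counts per gene, 9 files of whole numbers with no normalisation by the authors. The submitters' processing notes name featureCounts, HISAT2, CASAVA and the build GRCm38 (mm10). Versions, annotation release, strand setting and treatment of multiply mapped reads are not given in the sources used here. Polyadenylated RNA from a Trizol extraction was sequenced from both ends on an Illumina HiSeq, per the labels' protocols. The titles number the libraries of a group as replicates, and the labels do not say whether these are separate animals. The p-values therefore cover only how far these libraries differ, which may be technical.

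Symbols, positions and exon lengths came from GENCODE vM21, which named 52083 of 55359 Ensembl identifiers, and upstream sequences from RefSeq (GRCm38.p6). Numbered gene models with no Ensembl identifier held 1.43 to 1.98% of a library's counts. All 9 libraries were fitted in edgeR 4.0.16 (R 4.3.3) with TMM, filterByExpr (minimum count 10, minimum total 15), 6 residual degrees of freedom, a prior count of 0.125 and Benjamini-Hochberg adjustment over 17704 genes. All tests are two-sided. SE was obtained by dividing the size of the log2 fold change by the root of F. The counts of each paralogue cluster were also summed to 1 row and fitted among all genes. Shares of a cluster's reads were compared with exact permutation tests. Counting intervals are exact at 95%, and a count of 0 was set to a floor of 3 counts over the group. The fit was also run on simulated counts in which only a small part of the genes changed. Most genes moved in these data, so that run cannot show how the scaling behaves here. Alternatives were DESeq2 1.42.0, RLE and upper-quartile scaling, scaling without mitochondrial and muscle genes, no count filter, fits of 2 groups, the replicate number as a block and each library left out. The use of FMT-Con A 2 as its group's only library was added after the counts had been seen.

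Named are all tested members, with values in each library for those changed at least 2-fold in Con A against WT, those that passed in FMT-Con A against Con A and the 3 most abundant per kilobase in WT. Of each list up to 4 and 3 genes with the lowest p in those comparisons are named. Elane, Adipoq, Tsc22d3 and the muscle markers of the library check were named after their values were seen. Some genes that this rule names are not reported here. The members and lists were chosen with earlier results of these data known.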

Additional observations from a re-analysis of the deposited data

How the results depend on the processing

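The 10 members higher in Con A and the 9 higher in FMT-Con A than WT kept those counts under every alternative run. Against Con A, the 3 lower members became 6 with DESeq2 and 0 with FMT-Con A 2 alone, and 3 to 6 with a library left out. Genes called in that comparison, 2981 of all, became 1156 when only those 2 groups were fitted, 100 with FMT-Con A 2 alone and 685 to 4105 with a library left out (1823 without WT 1, 844 without Con A 1, 685 without FMT-Con A 1 and 788 without FMT-Con A 3). Against WT, the 5 members lower in FMT-Con A became 8 under upper-quartile scaling, 3 with FMT-Con A 2 alone and 3 to 7 with a library left out, and genes called went from 10449 to 6887 with FMT-Con A 2 alone. The cause was not tested, beyond the smaller number of libraries in the last kind of fit. Upper-quartile scaling moved the median of all genes in Con A against WT to -0.20.

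Signs turned only for members that did not pass. Under upper-quartile scaling Serpina1b in Con A against WT was -0.14, Serpina3c in FMT-Con A against Con A 0.05 and Serpina6 in FMT-Con A against WT -0.06. With FMT-Con A 2 alone, Serpina1c, Serpina3c and Serpina3g against Con A were 0.21, 0.30 and 0.07. With each library left out in turn, values in Con A against WT ran for Serpina1b -0.05 to 0.20, for Serpina1e -0.22 to 0.03, and values in FMT-Con A against Con A ran for Serpina10 -0.24 to 0.14, for Serpina1c -0.36 to 0.09, for Serpina5 -0.19 to 0.48, for Serpina3c -0.28 to 0.28, and values in FMT-Con A against WT ran for Serpina6 -0.19 to 0.25, for Serpina11 -0.01 to 0.25. Of the single-gene values under alternatives, 294 kept sign and side of the threshold in Con A against WT, 298 in FMT-Con A against Con A and 298 in FMT-Con A against WT.

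With the replicate number as a block, genes called were 11093, 2663 and 10207 in the 3 comparisons, and Serpina1d was also called lower in FMT-Con A against WT (-0.49, edgeR adjusted p = 0.0317). Serpina10 in FMT-Con A against Con A was -0.02 and Serpina6 in FMT-Con A against WT -0.03 with the block. Deviations of libraries with the same number correlated between -0.22 and 0.34, not all above 0.1 in any comparison. In FMT-Con A against Con A the correlations were 0.25 and 0.34 for replicates 2 and 3. With deviations taken from means of only 3 libraries, this check cannot decide whether the numbers pair the libraries. Depth limits Serpina3i and Serpina9, whose folds rest on 7 counts in WT and on 29 and 23 counts in the injected groups.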
